A study of Mus musculus with 8 samples.

Results

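The genes described here encode the machinery that copies DNA in S phase and the enzymes that supply its nucleotides. They are a named list of 41 genes, chosen by function, out of 23523 genes and other features summed from the deposited table. All 41 were among the 14641 genes that passed the filter on low counts and were tested. The RNA-seq libraries came from normal mouse brain (3 samples) and from mouse glioblastoma (5 samples), a malignant tumour of glial character. The tumours were induced with a lentiviral vector that expressed HrasG12V, an activated Ras oncogene, together with an shRNA against p53, the tumour suppressor encoded by Trp53. Tissue was taken from mice at their clinical endpoint, and the GFP+ tumour was freed of normal brain under a dissecting microscope. The labels record no vector for the normal brains. No label names the mouse strain, the ages, the promoters in the vector or the brain region sampled, or says whether the samples of a group are separate animals. The p-values therefore measure the spread between these samples, which may be technical.

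Replication starts at origins. The origin recognition complex (ORC) binds DNA and, with Cdc6 and Cdt1, loads the ring of Mcm2 to Mcm7, which is the core of the replicative helicase. Geminin, the product of Gmnn, binds Cdt1 and blocks a second loading in the same cycle. In S phase Cdc45 and the GINS complex join the ring and activate it. Primase and DNA polymerase alpha then start each strand, polymerases epsilon and delta extend it on the PCNA clamp, and Fen1 and DNA ligase 1 join the Okazaki fragments of the lagging strand. Many of these genes are targets of E2F transcription factors and are little expressed in cells that have left the cell cycle, as most neurons of the adult brain have.

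The libraries held between 5490356 and 15564279 assigned fragments, with tumour 4 the deepest, and 3 fragments correspond to a level between 0.193 and 0.546 CPM, the count scaled to library size, in a single library. The CPM levels of genes carry a further scaling factor per library (TMM), so this floor is only approximate on their scale. Trp53, the target of the shRNA, was not called lower. Its log2 fold change was -0.46 ± 0.35 (SE; edgeR adjusted p = 0.262), and the 95% interval of -1.26 to 0.33 includes no change. Hras rose by 2.05 ± 0.19 (SE) on the log2 scale, from 99.5 ± 4.61 CPM (SD of 3 brains) to 413 ± 75.1 CPM (SD of 5 tumours), and the counts do not separate the vector from the gene of the mouse. Among markers of normal brain cells, 6 of 8 neuronal, 8 of 8 oligodendrocyte and 3 of 6 astrocyte genes were lower in the tumours and none was higher. Their summed levels went from between 6691 and 7828 CPM in the brains to between 571 and 959 CPM in the tumours for neurons, from 3203 to 6240 down to 261 to 932 CPM for oligodendrocytes, and from 4571 to 5047 down to 895 to 2518 CPM for astrocytes. Slc1a2 held most of the astrocyte sum in the brains, with means of 3186 CPM there and 193 CPM in the tumours. The 3 astrocyte genes not called, Gja1, Aldh1l1 and Gfap, had positive estimates. Microglia and macrophage markers were higher for 7 of 8 genes, with sums of 252 to 265 CPM in the brains and 878 to 1326 CPM in the tumours, and endothelial markers for 5 of 6, with sums of 89.9 to 106.7 and 219 to 414 CPM. Of 6 oligodendrocyte precursor markers 1 was higher and 1 lower, and their sum of 238 to 253 CPM in the brains spread to between 148 and 1842 CPM in the tumours. Among all these markers, a level of 0 occurred only for Opalin in tumour 2.

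Nearly all the replication genes were higher in the tumours. Of the 41 genes, 39 were called higher and 0 lower by the edgeR quasi-likelihood test with Benjamini-Hochberg adjustment over all tested genes, at a threshold of 0.05. The same test called 37.1% of all tested genes higher and 33.9% lower, or 71.0% in either direction. The median log2 fold change of the 41 genes was 2.43, against 0.06 over all tested genes, and the values ranged from -0.25 for Orc5 to 5.88 for Tk1. Summed over the 41 genes, the level was 615.6, 620.8 and 618.2 CPM in brains 1 to 3 and 2043, 2595, 2476, 1476 and 2246 CPM in tumours 1 to 5. Every tumour thus exceeded every brain, and the brains lay close together while tumour 4 was the lowest tumour. These are pieces of tissue, so fewer cells of a type and less RNA per cell cannot be told apart, and the marker lists above moved with the same comparison. Their part in these changes was not tested.

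**Figure D1:**
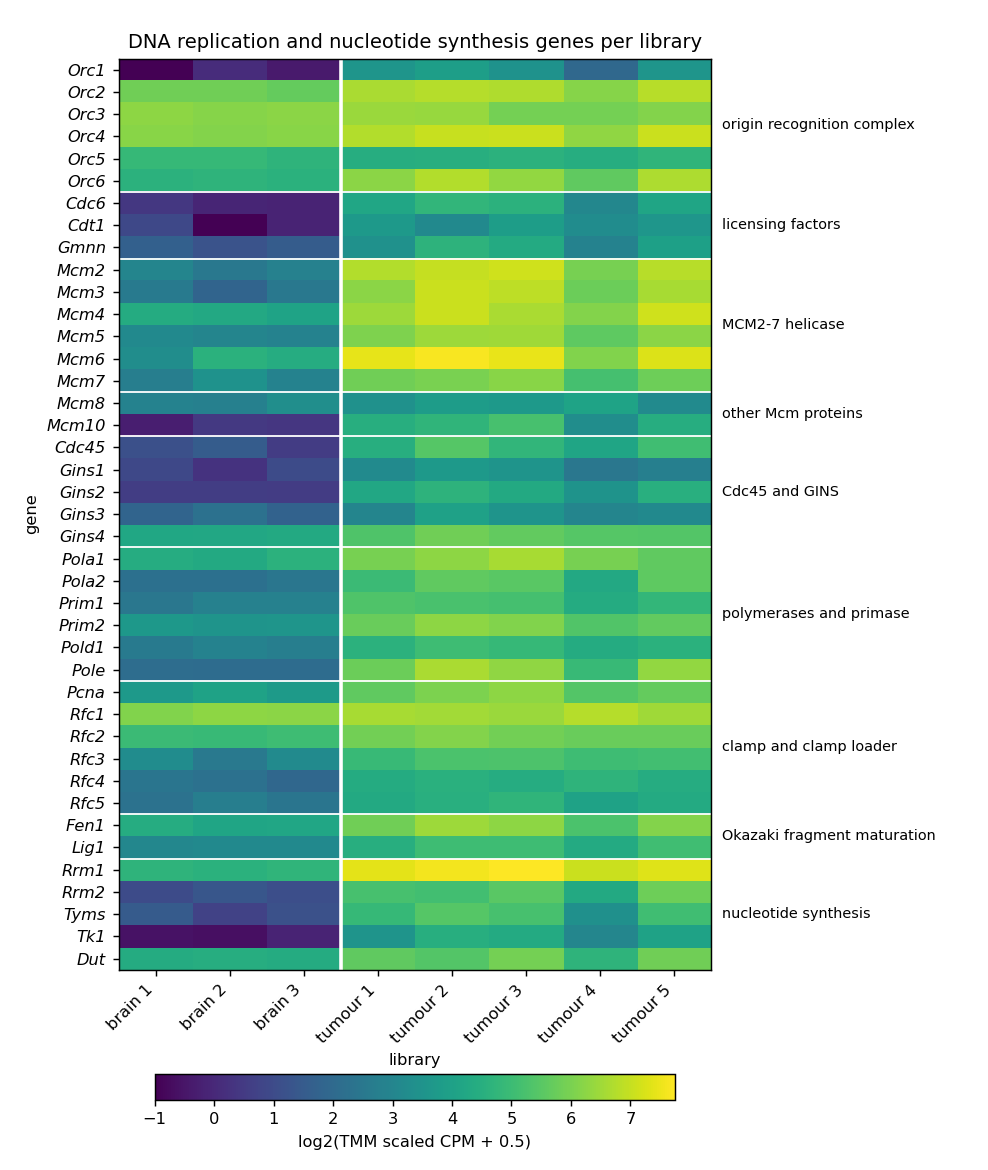
Levels of the 41 genes in each library, as log2(TMM scaled CPM + 0.5), with brains 1 to 3 left of the white line and tumours 1 to 5 right of it and genes grouped by role. The tumour columns are brighter for all rows but Orc3, Orc5 and, less clearly, Mcm8 and Rfc1, and tumour 4 is the dimmest tumour for 31 of the 41 genes.

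For 38 of the 41 genes every tumour lay above every brain, as it did for 36.1% of all tested genes. A called rise of at least 4-fold was found for 27 of the 41, against 15.9% of all tested genes, and one of at least 16-fold for 12, against 6.65%. The filter asked for at least 1.324 CPM, which is 10 counts at the median library size. This level had to be reached in as many libraries as the smaller group holds, whichever group they belonged to. By this rule 9 of the genes (Orc1, Cdc6, Cdt1, Mcm10, Cdc45, Gins1, Gins2, Tyms and Tk1) passed only through the tumours, so that a difference was built into their passing. Of the other 32 genes, 30 were called higher, 18 by at least 4-fold and 4 by at least 16-fold. The shares over all tested genes were not restricted in this way, so the counts over the 32 have no like share beside them. With no filter the count stayed at 39.

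**Figure D2:**
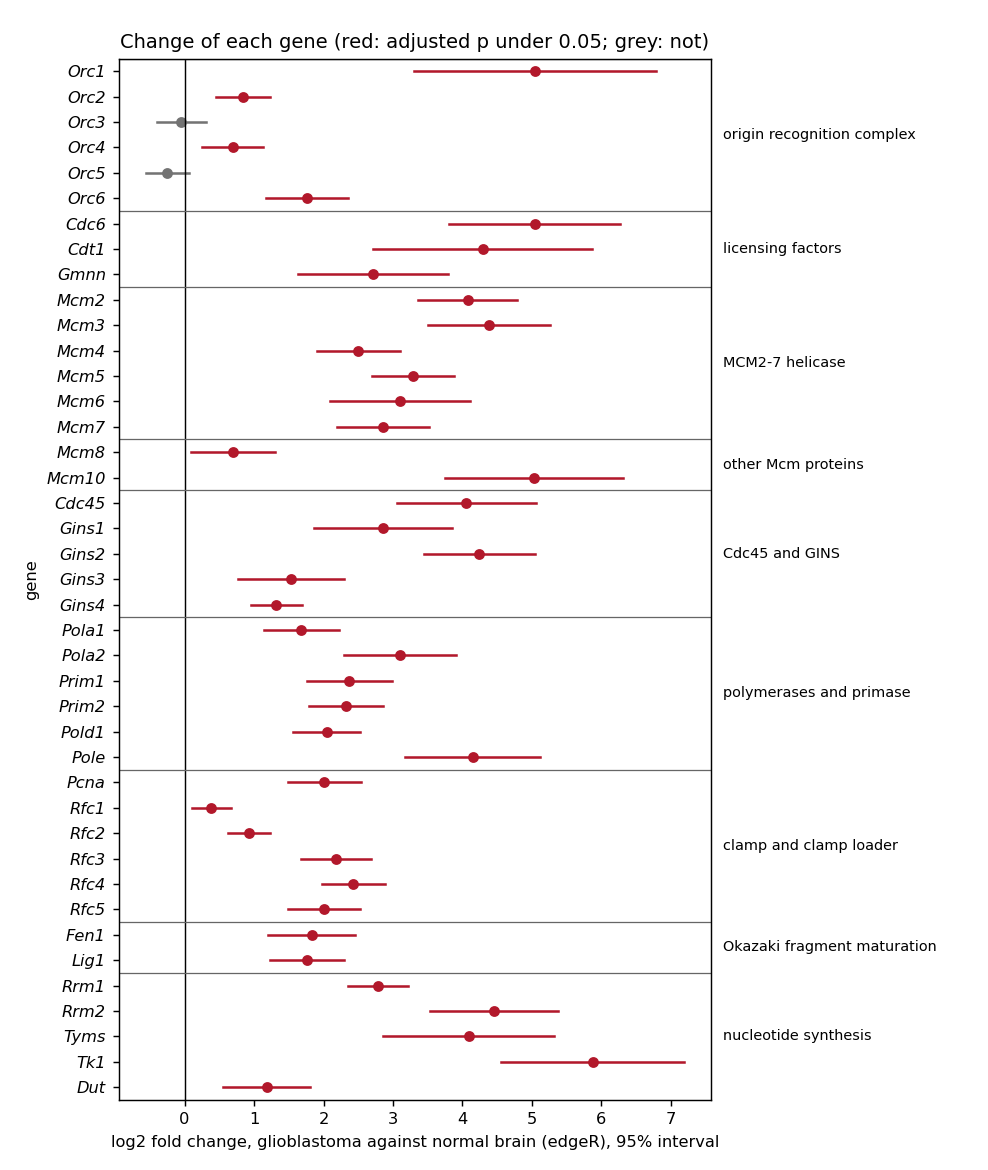
Log2 fold change of each gene in glioblastoma against normal brain from edgeR, with 95% intervals as lines and genes grouped by role; red marks an adjusted p under 0.05 and grey marks the rest. Orc3 and Orc5 are the grey genes around 0, and the widest intervals belong to genes with few fragments in the brains, such as Orc1.

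Sequence upstream of the genes is shown first because many of them moved together and E2F sites are a known feature of such promoters. The RefSeq table of promoters (GRCm38.p6, 250 bases before to 50 after each start) held entries for 33 of the 41 genes, with 40 promoters. E2F heptamers were searched on both strands, and their matches can overlap. The first was TTCCCGC. The second had the letters TTCGCGC. The third heptamer searched was TTGCCGC, and the last in the search was TTGGCGC. At least 1 was present in 57.5% of the 40 promoters, in 9.57% of all 32851 promoters of the table and in 15.9% of the 14686 promoters of tested genes. The letters CCAAT occurred in 55% of the 40 promoters, against 37.3% for tested genes, GGGCGG in 72.5% against 60.5%, and TTTGAA in 10% against 11.9%. The 40 promoters were also richer in G and C, with a median of 60.7% and 21 CpG against 52.7% and 7 in the whole table, and the E2F and GGGCGG letters are themselves rich in G and C. These medians were not computed for tested genes, which differ from the whole table, where GGGCGG occurred in 35.7% of promoters. The 21 genes with an E2F heptamer had a median log2 fold change of 2.37, and the 12 matched genes without had a median of 2.56. The 180 bases before the start are printed for genes with several matches (Mcm5 and Mcm6), with 1 match (Orc1, Rrm1 and the uncalled Orc3), and with none (Tk1, which changed most). All run 5′ to 3′ on the strand of the gene and end at the base before the start, and capitals mark the E2F heptamers, with overlapping ones joined.
Mcm5 (chr8:75109329-75109508, plus strand): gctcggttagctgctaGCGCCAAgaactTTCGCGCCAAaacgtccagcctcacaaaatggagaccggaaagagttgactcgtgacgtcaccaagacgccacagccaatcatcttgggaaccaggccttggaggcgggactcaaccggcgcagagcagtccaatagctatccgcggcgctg
Mcm6 (chr1:128359706-128359885, minus strand): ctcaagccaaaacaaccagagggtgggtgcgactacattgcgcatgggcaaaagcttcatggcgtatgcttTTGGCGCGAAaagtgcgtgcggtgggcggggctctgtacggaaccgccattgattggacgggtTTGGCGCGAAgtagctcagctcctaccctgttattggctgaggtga
Orc1 (chr4:108579274-108579453, plus strand): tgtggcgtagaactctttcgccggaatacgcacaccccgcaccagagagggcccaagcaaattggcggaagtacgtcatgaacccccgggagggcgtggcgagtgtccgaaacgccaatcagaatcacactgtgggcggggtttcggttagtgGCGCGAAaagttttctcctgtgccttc
Rrm1 (chr7:102441515-102441694, plus strand): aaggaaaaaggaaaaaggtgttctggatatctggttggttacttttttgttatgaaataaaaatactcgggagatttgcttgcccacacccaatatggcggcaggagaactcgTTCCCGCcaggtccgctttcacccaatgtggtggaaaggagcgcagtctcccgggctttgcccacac
Orc3 (chr4:34614943-34615122, minus strand): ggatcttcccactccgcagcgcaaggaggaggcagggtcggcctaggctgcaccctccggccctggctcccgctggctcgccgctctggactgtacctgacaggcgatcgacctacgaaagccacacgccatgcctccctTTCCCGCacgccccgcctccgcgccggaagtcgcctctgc
Tk1 (chr11:117826015-117826194, minus strand): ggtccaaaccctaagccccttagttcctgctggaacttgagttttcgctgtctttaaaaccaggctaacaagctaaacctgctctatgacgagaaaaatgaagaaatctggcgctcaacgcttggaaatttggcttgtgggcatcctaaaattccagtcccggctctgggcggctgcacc
In Mcm5 the 3 matches form 2 blocks, and in Mcm6 the 4 matches form 2 blocks of the same letters. A match is a string of letters and not a measured site, and the absence of a match in this window says nothing about the factor.

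The 6 subunits of ORC changed unequally, with 4 called higher and 2 not called. Orc1, the ATPase subunit that is made and destroyed with the cell cycle, was measured at 0, 0.577 and 0.273 CPM in brains 1 to 3 and at 11.3, 14.4, 10.6, 3.38 and 11.5 CPM in tumours 1 to 5. It was near absent from the brains, with 6 fragments in all 3, and tumour 4 had the lowest tumour level, still above every brain. The log2 fold change was 5.04 ± 0.76 (SE; edgeR adjusted p = 0.000379), and it became 5.97 when brain 2, which held 4 of the 6 fragments, was left out. Orc6, which joins the complex from outside the core ring, rose from 24.2, 25.1 and 23.7 CPM to 75.2, 105.7, 81.0, 48.6 and 102.7 CPM, a log2 fold change of 1.76 ± 0.26 (SE). The groups were well apart, and the brains differed by little. Orc2, a core subunit, was at 57.5, 57.4 and 50.7 CPM in the brains and at 98.5, 110.6, 103.2, 70.6 and 112.5 CPM in the tumours, and rose by 0.84 ± 0.17 (SE; edgeR adjusted p = 0.00213). Orc4, another core subunit, rose by 0.69 ± 0.19 (SE; edgeR adjusted p = 0.0104).

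Orc3 and Orc5, both core subunits, were the 2 genes of the 41 that passed the test in neither direction. Orc3 was at 77.0, 70.7 and 74.3 CPM in the brains and at 85.5, 83.7, 60.8, 59.9 and 69.2 CPM in the tumours. The groups overlapped, with tumours 1 and 2 above every brain and tumours 3, 4 and 5 below every brain. Its log2 fold change was -0.04 ± 0.16 (SE; edgeR adjusted p = 0.813), and the 95% interval ran from -0.40 to 0.31. Orc5 was at 28.6, 28.6 and 25.4 CPM in the brains and at 21.4, 22.0, 24.1, 21.7 and 26.3 CPM in the tumours. Only tumour 5 reached into the range of the brains, and the log2 fold change was -0.25 ± 0.14 (SE; edgeR adjusted p = 0.127), and the 95% interval ran from -0.56 to 0.06. Both intervals exclude a 2-fold change in either direction.

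The licensing factors that bring the helicase to ORC were low in the brains and higher in all 5 tumours. Cdc6, the ATPase that binds ORC and recruits the helicase, was at 0.846, 0.433 and 0.409 CPM in the brains and at 17.8, 26.3, 24.2, 7.80 and 17.2 CPM in the tumours. The brains held 11 fragments in all against 800 in the tumours, and the log2 fold change was 5.04 ± 0.54 (SE). Cdt1, which carries the helicase to the origin, was at 1.35, 0 and 0.409 CPM in the brains and at 12.7, 8.48, 14.2, 9.14 and 11.6 CPM in the tumours. Its rise of 4.29 ± 0.69 (SE; edgeR adjusted p = 0.000553) rested on 11 brain fragments, 8 of them in brain 1. Without brain 1 the log2 fold change was 5.66, and without brain 2 it was 3.69. Gmnn, the inhibitor of Cdt1, rose less, by 2.71 ± 0.47 (SE), from 2.71, 1.88 and 2.45 CPM to 10.2, 24.9, 20.0, 6.81 and 15.4 CPM. Its tumours spread more than 3-fold, with tumour 2 the highest and tumour 4 the lowest.

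All 6 genes of the MCM2-7 helicase rose, with log2 fold changes from 2.50 to 4.38. Mcm3 changed most, from 5.41, 3.03 and 5.18 CPM in the brains to 74.1, 131.5, 117.0, 54.4 and 98.2 CPM in the tumours, or 4.38 ± 0.39 (SE; edgeR adjusted p = 1.7e-05) on the log2 scale. Mcm4 changed least, from 20.3, 19.0 and 16.2 CPM to 88.1, 131.2, 98.9, 68.9 and 137.2 CPM, or 2.50 ± 0.26 (SE). Even for Mcm4 the lowest tumour was more than 3 times the highest brain. Mcm2 rose by 4.07 ± 0.31 (SE), from 7.44, 5.19 and 6.68 CPM to 105.8, 126.8, 137.5, 61.2 and 111.7 CPM. Mcm5, Mcm6 and Mcm7, the other subunits of the ring, rose by 3.29 ± 0.26, 3.10 ± 0.44 and 2.86 ± 0.29 (SE). Mcm6 was the most uneven of them in both groups, at 9.30, 23.7 and 20.7 CPM in the brains and at 172.0, 201.3, 174.7, 67.8 and 155.2 CPM in the tumours.

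The remaining Mcm genes sit at opposite ends of the range. Mcm10, a scaffold needed to activate the helicase, rose by 5.03 ± 0.56 (SE), from 0.338, 0.866 and 0.818 CPM to 22.0, 25.8, 36.8, 9.32 and 21.2 CPM. Mcm8, which works with Mcm9 in homologous recombination and is not a part of the MCM2-7 ring, was at 6.94, 6.49 and 9.54 CPM in the brains and at 10.4, 13.9, 13.0, 16.4 and 8.65 CPM in the tumours. The groups overlapped, since tumour 5 lay below brain 3, and tumour 4 was here the highest. The log2 fold change of 0.70 ± 0.26 (SE) passed the threshold narrowly (edgeR adjusted p = 0.0394). The call was lost when any 1 of 5 libraries was left out, with an edgeR adjusted p of 0.121 without brain 1, 0.138 without brain 2, 0.068 without tumour 2, 0.063 without tumour 3 and 0.055 without tumour 4.

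Cdc45 and the 4 GINS genes, which turn the loaded ring into an active helicase, all rose. Cdc45 rose by 4.05 ± 0.44 (SE), from 1.70 ± 0.75 CPM (SD of 3 brains) to 28.4 ± 10.2 CPM (SD of 5 tumours). Within GINS the changes were uneven. Gins2 rose most, by 4.24 ± 0.35 (SE), from 1.01, 1.01 and 0.954 CPM to 18.5, 24.5, 19.3, 10.7 and 22.5 CPM. Gins4 rose least, by 1.32 ± 0.16 (SE), from 18.1, 18.3 and 19.5 CPM to 39.9, 57.4, 50.2, 42.9 and 42.5 CPM. Gins4 was thus well expressed in the brains already, and its 95% interval of 0.95 to 1.69 lay apart from that of Gins2, 3.44 to 5.05. Gins2 and Gins4 were picked as the largest and smallest change, so this gap is not a test of unevenness. Gins2, Cdc45 and Gins1 also passed the filter only through the tumours, so that a difference was built into their passing. Gins1 and Gins3 rose by 2.86 ± 0.44 and 1.53 ± 0.33 (SE).

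The polymerase and primase genes rose by 1.68 to 4.15 on the log2 scale. Pole, the catalytic subunit of polymerase epsilon, which copies the leading strand, was at 3.89, 3.75 and 3.82 CPM in the brains and at 55.1, 98.7, 77.6, 29.2 and 79.3 CPM in the tumours. Its log2 fold change was 4.15 ± 0.43 (SE), and the brains were nearly equal while the tumours spread more than 3-fold. Pold1, the catalytic subunit of polymerase delta, which copies the lagging strand, rose by 2.04 ± 0.21 (SE), from 5.41, 6.93 and 6.27 CPM to 23.9, 32.1, 28.5, 20.6 and 23.4 CPM. Pola1, the catalytic subunit of polymerase alpha, changed least, by 1.68 ± 0.24 (SE), from 21.1, 19.6 and 24.0 CPM to 62.0, 76.5, 97.5, 62.4 and 48.2 CPM. For Pola1 tumour 5 and not tumour 4 was the lowest. Its partner subunit Pola2 rose by 3.10 ± 0.36 (SE). Prim1, the catalytic subunit of primase, was at 5.07, 6.78 and 6.68 CPM in the brains and at 40.2, 37.3, 35.3, 20.5 and 27.5 CPM in the tumours, and rose by 2.37 ± 0.27 (SE). Prim2, the large subunit, was at 12.2, 11.1 and 11.3 CPM in the brains and at 53.5, 76.3, 68.6, 40.8 and 50.2 CPM in the tumours, and rose by 2.32 ± 0.23 (SE).

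The genes of the clamp and its loader all rose, by very different amounts. Pcna, the sliding clamp, rose by 2.01 ± 0.23 (SE), from 14.0 ± 1.73 CPM (SD of 3 brains) to 56.8 ± 13.9 CPM (SD of 5 tumours). Rfc4, a small subunit of the loader, changed most in this group, from 4.74, 4.33 and 3.27 CPM to 20.6, 23.1, 20.9, 25.3 and 20.9 CPM, or 2.43 ± 0.20 (SE; edgeR adjusted p = 1.1e-05). The 5 tumours were close together, and tumour 4 was the highest. Rfc3 and Rfc5, which are also small subunits, rose by 2.18 ± 0.22 and 2.01 ± 0.23 (SE), and Rfc2 by 0.93 ± 0.13. Rfc1, the large subunit, was at 68.5, 76.0 and 74.4 CPM in the brains and at 96.5, 92.7, 85.8, 110.1 and 91.1 CPM in the tumours. Every tumour was above every brain, but the log2 fold change was only 0.38 ± 0.12 (SE; edgeR adjusted p = 0.0206). The call was lost without any 1 of the brains, with an edgeR adjusted p of 0.088 without brain 1, 0.051 without brain 2 and 0.057 without brain 3.

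Both genes of Okazaki fragment maturation rose by a similar amount. Fen1, the nuclease that trims flaps, was at 21.1, 17.0 and 17.4 CPM in the brains and at 56.9, 87.5, 77.0, 38.2 and 70.3 CPM in the tumours, a rise of 1.83 ± 0.28 (SE) on the log2 scale. Lig1, the ligase that seals the nicks, was at 7.78, 8.37 and 8.32 CPM in the brains and at 21.7, 32.3, 32.0, 19.9 and 33.1 CPM in the tumours, a rise of 1.77 ± 0.23 (SE). In both genes tumour 4 was the lowest tumour and lay above every brain.

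All 5 genes of nucleotide synthesis rose. Tk1, the cytosolic thymidine kinase that salvages thymidine in S phase, showed the largest log2 fold change of the 41 genes, 5.88 ± 0.58 (SE; edgeR adjusted p = 3.1e-05). It was at 0.169, 0.144 and 0.409 CPM in the brains and at 11.2, 21.8, 20.2, 7.57 and 16.1 CPM in the tumours. The brains held 5 fragments in all, which is near the limit of detection, against 682 in the tumours, and without brain 3, which held 3 of them, the log2 fold change was 6.50. Rrm2, the small subunit of ribonucleotide reductase, which makes deoxyribonucleotides in S phase, rose by 4.45 ± 0.40 (SE), from 1.52, 2.02 and 1.64 CPM to 36.6, 33.6, 45.2, 19.5 and 55.99 CPM. Rrm1, the large subunit, rose by 2.79 ± 0.19 (SE), from 25.2, 23.8 and 26.3 CPM to 167.7, 192.1, 215.4, 132.9 and 159.7 CPM. Tyms, thymidylate synthase, rose by 4.09 ± 0.54 (SE), from 1.77 ± 0.61 CPM (SD of 3 brains) to 30.1 ± 12.4 CPM (SD of 5 tumours). Dut, which removes dUTP, rose least, by 1.18 ± 0.28 (SE; edgeR adjusted p = 0.00432), from 20.5, 21.2 and 20.2 CPM to 49.0, 42.4, 59.6, 25.2 and 57.6 CPM. In tumour 4 Dut stood only a little above the brains.

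Pairs of genes, 10 in all, were compared within each library, as the log2 CPM of the first minus that of the second. The length of each gene thus cancels between the groups. The genes of a pair share an enzyme, a complex or a step, except Mcm2 and Mcm8, which are only both Mcm genes. An exact two-sided permutation test over the 56 assignments of the 8 samples was used, whose smallest possible p is 0.0179, with adjustment over the 10 pairs. The difference passed in 8 pairs, each at this smallest p (exact permutation, adjusted p = 0.0223) and with no overlap between the groups. Tk1 and Orc1, each in 1 of these pairs, and Cdt1 passed the filter only through the tumours, so that for their pairs a separation was in part built in. All the pairs were chosen with earlier results of these data known. Rfc4 and Rfc1, for example, have the largest and the smallest change of their role. A separation could thus be foreseen, and the p-values describe these pairs without being independent support.

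Among the pairs, the shift was largest for Tk1 with Tk2 and next largest for Rrm2 with Rrm2b. Each sets an S phase form against a counterpart that works outside S phase. The difference between Tk1 and the mitochondrial thymidine kinase Tk2 was -6.68, -6.64 and -6.13 in the brains and -0.89, -0.20, -0.23, -2.06 and -0.58 in the tumours, a shift of 5.69. Tk2 itself was lower in the tumours, at 20.9, 25.1, 23.7, 32.3 and 24.1 CPM against 40.6, 37.1 and 44.6 CPM in the brains (log2 fold change -0.69 ± 0.16, SE). Between Rrm2 and Rrm2b, the p53-inducible small subunit of the same enzyme, the difference was -5.04, -4.62 and -5.03 in the brains and 0.24, -0.10, 0.46, -0.63 and 0.87 in the tumours, a shift of 5.06. Rrm2b fell by 0.85 ± 0.12 (SE) on the log2 scale, from 57.3, 55.0 and 60.9 CPM to 31.0, 36.1, 32.9, 30.2 and 30.6 CPM. Tk1 and Rrm2 themselves rose by 5.88 and 4.45 on the log2 scale, so most of each shift came from the S phase gene. The pairs were chosen with earlier results known, so whether S phase forms as a class gain on such counterparts was not tested.

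Subunits of a single complex also changed unequally. Rrm2 gained on Rrm1 by 1.46, from -3.70 ± 0.25 (SD of 3 brains) to -2.24 ± 0.47 (SD of 5 tumours). Orc1 gained on Orc2 by 3.57 and Orc6 on Orc2 by 0.88. With a prior count of 0.5 in place of 2, the shift was 4.52 for Orc1 with Orc2 and 6.40 for Tk1 with Tk2. Orc1 and Tk1 had only 6 and 5 brain fragments, so the size of these shifts depends on the prior count. Rfc4 gained 1.999 on Rfc1, from -4.09 ± 0.31 (SD of 3 brains) to -2.09 ± 0.09 (SD of 5 tumours), and the 5 tumours lay closer to each other than the 3 brains did. Between the polymerases, the difference of Pole and Pold1 was -0.45, -0.85 and -0.68 in the brains and 1.20, 1.61, 1.44, 0.50 and 1.75 in the tumours, a shift of 1.96. Mcm2 gained 3.32 on Mcm8, which is not a part of the same complex.

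The pairs Cdt1 with Gmnn and Prim1 with Prim2 did not pass. Cdt1 minus Gmnn was -0.89, -3.20 and -2.07 in the brains and 0.31, -1.53, -0.49, 0.41 and -0.39 in the tumours, so that brain 1 overlapped the tumours. The shift of 1.72 gave an exact permutation p of 0.0536 (adjusted p = 0.0595), and with a prior count of 0.5 in place of 2 it was 2.48 with an exact permutation adjusted p of 0.0397. Prim1 minus Prim2 was -0.89 ± 0.29 (SD of 3 brains) in the brains and -0.85 ± 0.25 (SD of 5 tumours) in the tumours, a shift of 0.04 (exact permutation p = 0.857). Both subunits of primase rose about 5-fold.

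**Figure D3:**
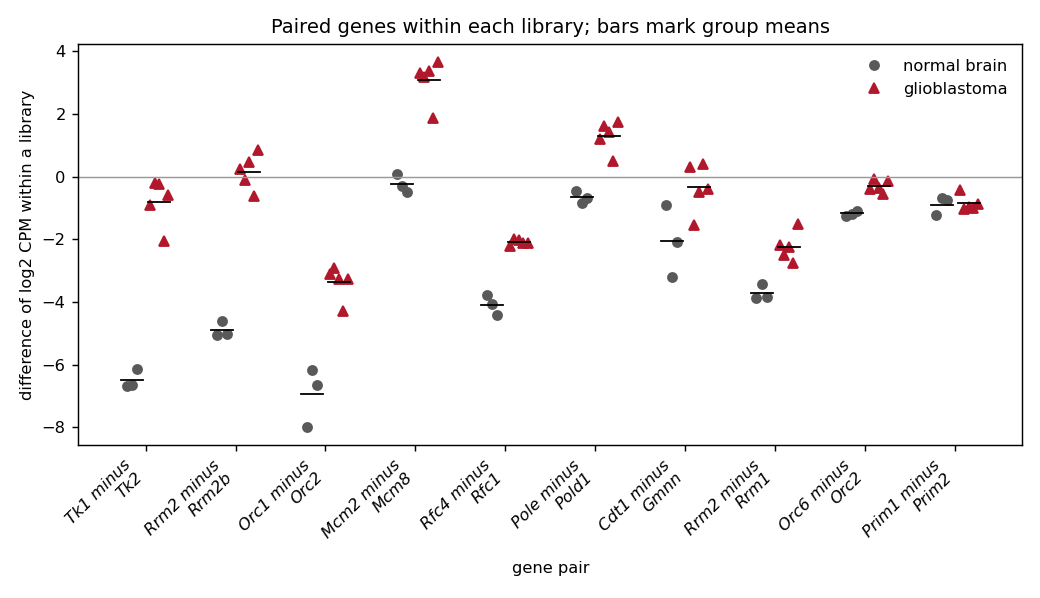
Difference of log2 CPM between the genes of each pair within a library, with a circle per brain, a triangle per tumour and a bar at each group mean. Circles and triangles are apart for 8 of the 10 pairs and overlap for Cdt1 with Gmnn and Prim1 with Prim2.

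Levels of different genes were set side by side per length, as the FPKM values of the authors summed per gene. Within the MCM2-7 ring, whose subunits are present in equal number in the protein complex, the FPKM level was highest for Mcm6 and lowest for Mcm5 in all 5 tumours. Mcm6 was at 60.0, 71.9, 60.97, 23.2 and 53.3 FPKM in tumours 1 to 5, and Mcm5 was at 19.5, 26.7, 26.4, 13.6 and 21.5 FPKM. The ratio of the highest to the lowest subunit was thus between 1.71, in tumour 4, and 3.08, in tumour 1. In the brains Mcm3 was the lowest of the 6, at 1.90, 1.07 and 1.83 FPKM, and the ratio of highest to lowest was between 2.97 and 7.77.

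ORC was far less balanced per length. Orc1 was the lowest of its 6 genes in every library, at 0.0957 ± 0.0975 FPKM (SD of 3 brains) in the brains and 3.44 ± 1.41 FPKM (SD of 5 tumours) in the tumours. Orc4 was the highest in all 3 brains, at 20.6 ± 0.29 FPKM (SD), and Orc6 in all 5 tumours, at 54.0 ± 15.2 FPKM (SD). Among the GINS genes Gins4 was the highest in all 8 libraries, and Gins3 was the lowest in all 5 tumours. In the clamp loader Rfc2 was the highest and Rfc5 the lowest in all 8 libraries. Pole was the lowest of the polymerase and primase genes in the brains, at 0.530, 0.514 and 0.523 FPKM, and in tumour 4, whereas Pold1 was the lowest in the other 4 tumours. Rrm1 exceeded Rrm2 per length in every library, by 6.27 ± 0.32 against 0.826 ± 0.127 FPKM (SD of 3 brains) in the brains and 43.1 ± 8.29 against 18.1 ± 6.37 FPKM (SD of 5 tumours) in the tumours.

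**Figure D4:**
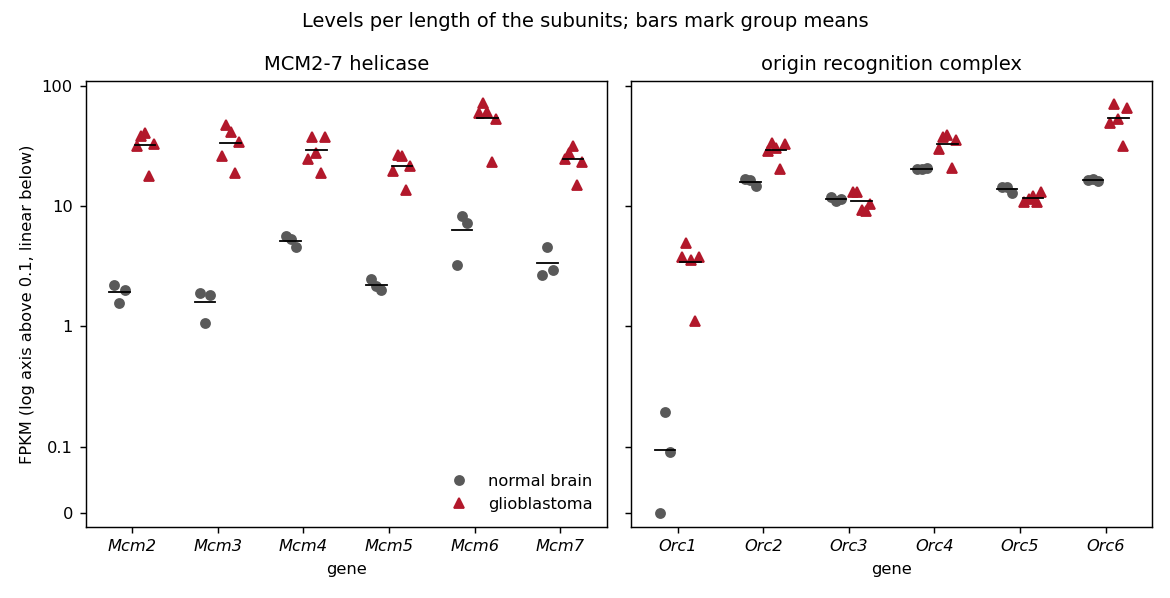
FPKM of the subunits of the MCM2-7 helicase (left) and of ORC (right) in each library, with a circle per brain, a triangle per tumour and a bar at each group mean, on an axis that is logarithmic above 0.1 and linear below. The MCM2-7 tumours sit together well above the brains, while in ORC the Orc1 level is apart from the rest and the groups of Orc3, Orc5 and, through tumour 4, Orc4 overlap on this scale.

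Other genes of replication and nucleotide supply, in 7 lists of 77 genes that exclude the 41, were read from the same fit. Of these 77 genes, 59 were called higher and 4 lower, with a median log2 fold change of 1.16, beside 37.1% higher, 33.9% lower and a median of 0.06 over all tested genes. Of the 77, 11 passed the filter only through the tumours, Ticrr, Dscc1, Chaf1b, Asf1b, E2f7 and E2f8 among them, so that a difference was built into their passing. Of the other 66, 48 were higher and 4 lower, and the shares over all tested genes were not restricted in this way. In the list of origin loading and firing, 8 of 11 were higher and 0 lower. Of the 9 that did not depend on the tumours to pass the filter, 6 were higher. Dbf4, the activator of the Cdc7 kinase that triggers the helicase, rose by 4.92 ± 0.46 (SE) on the log2 scale, from 2.37 ± 0.46 CPM (SD of 3 brains) to 72.3 ± 25.9 CPM (SD of 5 tumours). Cdc7 itself was not called, at 22.3 ± 1.48 CPM (SD of 3 brains) and 26.7 ± 6.08 CPM (SD of 5 tumours), and is named after its values were seen. Ticrr, which brings Cdc45 to origins, was represented by 2 brain fragments and 143 tumour fragments, a ratio of levels of 29.2 with a 95% counting interval from 8.07 to 240.8.

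At the replication fork 21 of 23 genes were higher and 0 lower, beside 37.1% higher over all tested genes. Of the 19 that did not depend on the tumours to pass the filter, 17 were higher. Top2a, the topoisomerase that untangles copied DNA, rose by 6.96 ± 0.45 (SE), from 3.93 ± 0.56 CPM (SD of 3 brains) to 492.0 ± 177.4 CPM (SD of 5 tumours). Dscc1, part of an alternative clamp loader, was represented by 1 brain fragment and 195 tumour fragments, a ratio of 79.5 with a 95% counting interval from 14.3 to 3141. All 8 genes of histone supply and assembly were higher, as were the 6 of them that did not depend on the tumours to pass the filter. Chaf1b, a subunit of the chromatin assembly factor CAF-1, rose by 5.04 ± 0.38 (SE), and the histone chaperone Asf1b by 5.67 ± 0.58 (SE).

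Of 13 genes of de novo and S phase nucleotide supply, 11 were higher and 0 lower. Shmt1, which supplies one-carbon units, rose by 3.22 ± 0.28 (SE; edgeR adjusted p = 1.5e-05) on the log2 scale. The 4 genes of nucleotide supply outside S phase split, with Rrm2b and Tk2 lower, as above, Dguok not called and Samhd1, a hydrolase of deoxyribonucleotides that is abundant in myeloid cells, higher by 2.87 ± 0.34 (SE). The microglia and macrophage marker sum was also higher in the tumours, and its part in the Samhd1 level was not tested. In mitochondrial DNA replication, 4 of 8 genes were higher and 1 was lower, with a median log2 fold change of 0.42. Over all tested genes 37.1% were higher, so this count is not a result about the list. Polg2 and Mgme1, an accessory polymerase subunit and an exonuclease, rose by 1.29 ± 0.26 and 0.90 ± 0.24 (SE), and Polrmt, the mitochondrial RNA polymerase, fell by 0.84 ± 0.19 (SE) on the log2 scale.

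Of 10 E2F and partner genes, 6 were higher and 1 was lower, and 3 of the 6 passed the filter only through the tumours. Of the other 7, 3 were higher and 1 was lower, beside 37.1% higher and 33.9% lower over all tested genes. The latter shares were not restricted by the filter in this way, and these counts are not a result about the list. E2f8, a repressor of the family that accumulates in S phase, was represented by 1 brain fragment, from brain 2, and 1429 tumour fragments, a ratio of 582.8 with a 95% counting interval from 104.6 to 23020. E2f7, its close relative, rose by 3.98 ± 0.64 (SE). Tfdp2, a dimerisation partner, fell by 1.12 ± 0.15 (SE) on the log2 scale. The single brain fragments of E2f8 and Dscc1 set the fitted values, which became 11.1 for E2f8 without brain 2 and 8.32 for Dscc1 without brain 3, compared with 8.90 and 6.14 with all libraries. The ratios rest on the same single fragments. The level in the tumours was 194 times that of 3 fragments over the brains for E2f8, and 26.5 times for Dscc1.

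The 5 tumours did not hold the 41 genes at the same level. Tumour 4 was the lowest tumour for 31 of the 41 genes (75.6%), and for 30 of the 39 called higher (76.9%), whereas it was the lowest for 56.8% of all genes called higher and for 64.4% of the 59 further replication and nucleotide genes called higher. Tumour 2 was the highest for 19 genes, tumour 3 for 11, tumour 5 for 6, tumour 4 for 3 and tumour 1 for 2. Of the 39 called higher, tumour 2 was the highest for 48.7% and tumour 3 for 28.2%, against 29.2% and 29.9% of all genes called higher. For tumours 5, 4 and 1 the shares were 12.8%, 7.69% and 2.56%, against 21.0%, 13.9% and 6.03%. Relative to the mean of the 5 tumours, the median of the 41 genes was -0.60 in tumour 4 on the log2 scale and 0.29 in tumour 2. The median in tumour 4 was -0.32 over all genes called higher and -0.41 over the 59 further genes. The mean of the other tumours was 1.69 times tumour 4 in the median over the 41 genes, and 1.06 times in the median over all tested genes. These are counts over genes that share a library, and 1 tumour gives no test.

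The 10 genes for which tumour 4 was not the lowest were Orc5, Cdt1, Mcm8, Gins3, Gins4, Pola1, Rfc1, Rfc2, Rfc3 and Rfc4. Of the 5 clamp loader genes, 4 are among them. Mcm8, Rfc1 and Rfc4 were at their highest in tumour 4, at 16.4, 110.1 and 25.3 CPM against at most 13.9, 96.5 and 23.1 CPM in the other tumours. Tumour 4 was also the deepest library. It held the highest sums of oligodendrocyte precursor (1842 CPM), astrocyte (2518 CPM) and oligodendrocyte markers (932 CPM) among the tumours, and the lowest sums of microglia and macrophage (878 CPM) and endothelial markers (219 CPM). The part of depth or of these cell types in its lower levels was not tested. Without tumour 4, 38 of the 41 genes were called higher and the median log2 fold change was 2.50. Brain 1 stood apart by its oligodendrocyte marker sum, 6240 CPM against 3223 and 3203 CPM, and without both libraries 37 genes were called higher with the same median of 2.50.

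**Figure D5:**
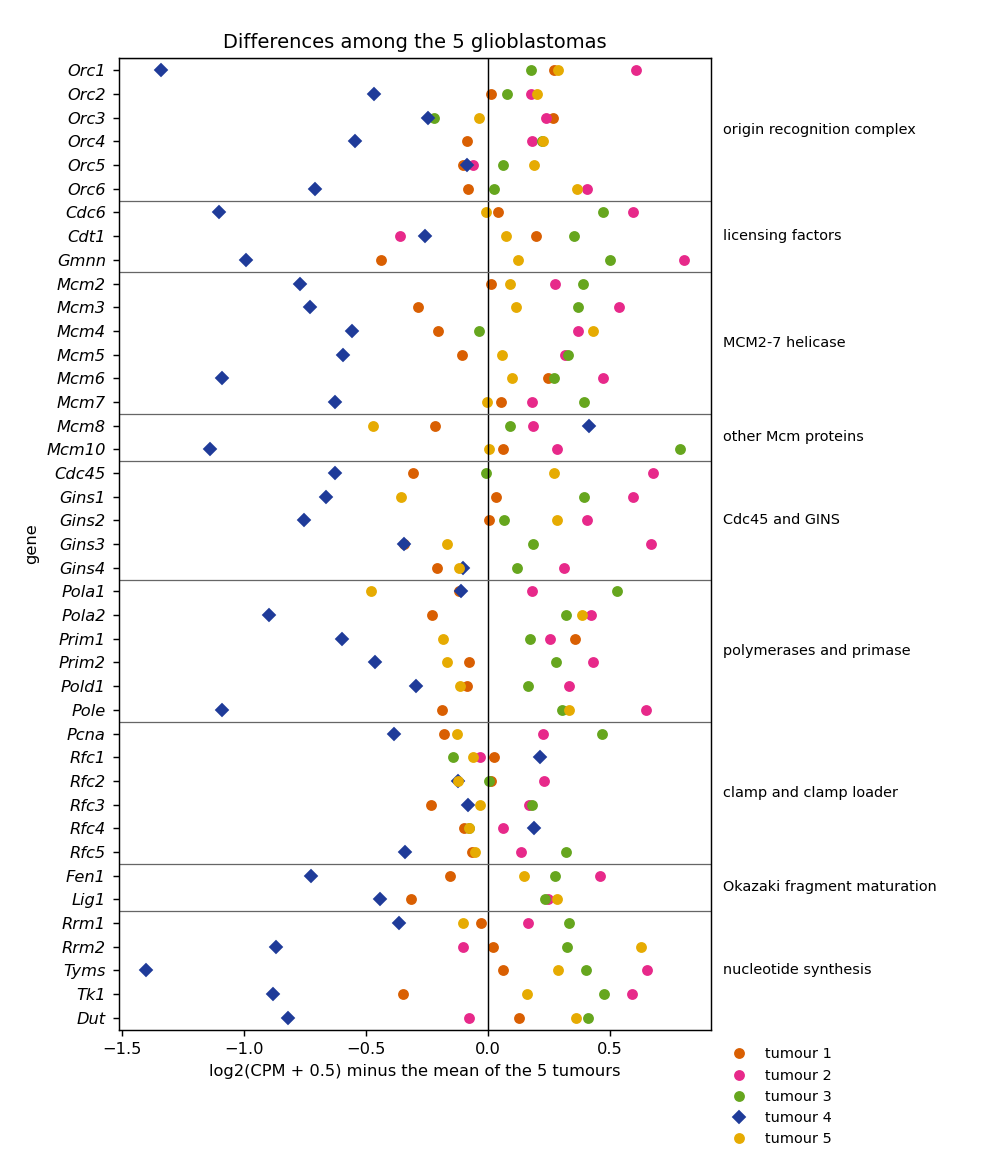
Level of each gene in each of the 5 tumours, as log2(CPM + 0.5) minus the mean of the 5, with 1 colour per tumour, diamonds for tumour 4 and genes grouped by role. The diamonds lie furthest left for 31 of the 41 genes, and at the right for Mcm8, Rfc1 and Rfc4.

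The spread of the 41 genes among samples was close to that of genes in general. The median SD of log2 CPM was 0.394 among the tumours and 0.172 among the brains, against 0.379 and 0.154 over all tested genes. Without tumour 4 the median SD among the tumours was 0.244 for the 41 genes and 0.294 over all tested genes. The evenest genes among the tumours were Orc5, Rfc4 and Rfc1, with SDs of 0.12, 0.12 and 0.13, and the most uneven were Tyms and Orc1, with 0.82 and 0.80.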

How the data were processed

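RNA-seq libraries of 3 normal brains and 5 glioblastomas took their group from the source name, and replicate numbers follow accession order and pair nothing. Per the labels' protocols, RNA was purified on columns with DNase treatment and converted to libraries with a TruSeq RNA kit. Per the submitters' processing notes, STAR 2.3.0e, Cuffdiff 2.1.1 and the mm9 build were used. For annotation and strandedness, no value is given in the sources used here. A table that the authors deposited has estimated counts of fragments and FPKM values for 30967 RefSeq accessions per library, per the file headers.

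Accessions were matched to symbols through RefSeq (30474) or GENCODE (178), and the 315 without a symbol held 0.507% of fragments. Estimated counts were added up over the accessions of a gene and then rounded. For genes with several accessions, 98.0% of sums were whole (within 0.01, or 1e-05 of the value). No gene named here shared fragments with another gene by this sign. All pairs of libraries differed by more than sampling noise (lowest chi-square per degree of freedom 4.96).

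The test was edgeR 4.0.16 (TMM factors, default filter with a minimum count of 10, robust quasi-likelihood F test, Benjamini-Hochberg over 14641 genes, threshold 0.05). It was tested on simulated data, where DESeq2 made more false calls than edgeR in every run. The simulated counts were drawn from the edgeR fit with few genes changed, unlike these data, so the runs cannot rank the tools here. DESeq2 serves only as an alternative. Standard errors were derived from the F statistic. CPM values are TMM scaled, and pairs used log2 CPM with a prior count of 2. Ratios for genes with 1 to 3 brain fragments carry exact 95% Poisson intervals, which cover counting error only. Promoters came from RefSeq (GRCm38.p6), and no coordinates of the authors' build were used.

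The 41 genes, lists and tests were chosen with earlier results of these data known. Every one of the 41 is named. Values in each library are given for the largest and smallest change in each role, for uncalled genes and for paired genes. Each further list is represented by its 2 most changed called genes in the direction of most members and by 1 in the other direction. A gene that this rule names is not reported here. Alternatives were DESeq2 1.42.0, factors by RLE, by upper quartile or by library size only, no filter, 5 CPM in 3 samples, limma 3.58.1 on log2(FPKM + 1) and log2(FPKM + 0.1), leaving out each library or brain 1 with tumour 4, leaving out genes with shared fragments, and a prior count of 0.5. Software was R 4.3.3 and, in Python, scipy 1.17.1, pandas 2.3.3, numpy 2.4.6 and matplotlib 3.10.9.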

Additional observations from a re-analysis of the deposited data

Results flagged for a closer look

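Among the 5 tumours, 4 of the 41 genes had a level in tumour 4 far below the other tumours by Dixon's criterion on log2 CPM (a gap above 0.71 of the whole range). The gap was 0.783 of the range for Orc1, at 3.38 CPM in tumour 4. It was 0.761 for Mcm6, at 67.8 CPM, 0.715 for Orc2, at 70.6 CPM, and 0.715 for Tyms, at 9.96 CPM. In each case tumour 4 still exceeded every brain. Chance marks about 1 in 20 groups, or about 2 of 41, and the genes share their libraries. Only the 41 genes were looked at in this way, so the count has no share over all tested genes beside it. Tumour 4 was the lowest tumour for 56.8% of all genes called higher.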

How the results depend on the processing

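Of 738 values of the 41 genes under 18 alternatives, 728 kept their call, 10 lost it and 0 reversed. The 10 belonged to Mcm8 and Rfc1, under the left-out libraries given with these genes and with brain 1 and tumour 4 both left out (log2 fold changes 0.52 and 0.29). Between 37 and 39 genes were higher and 0 lower throughout. Scaling by library size only moved the median of all genes from 0.06 to 0.20, a shift of 0.14, and turned the uncalled estimate for Orc3 from -0.04 to 0.09. With limma on log2(FPKM + 1) the changes of genes low in the brains were smaller (Orc1 1.94, Tk1 3.40), since the pseudocount exceeds their brain levels. In the pairs, 9 passed with a prior count of 0.5 and 8 with log2(FPKM + 0.1).

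Counts in the further lists that moved were small, and the cause was not tested. Leaving out each library in turn gave 0 to 1 lower genes in loading and firing (1, Donson, without tumour 2), 1 to 2 higher genes in nucleotide supply outside S phase (2, with Dguok, without tumour 4 or tumour 5) and 1 to 2 lower genes in mitochondrial replication (2, with Polg, without tumour 4). Nucleotide supply outside S phase also had 2 higher genes with upper quartile factors, library size only and both limma fits, and de novo supply had 1 lower gene, Dhodh, with limma on log2(FPKM + 1).

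No paired analysis was possible because the labels give no replicate numbers. Depth limits the genes with few brain fragments, whose fold changes rest on 5 to 35 fragments for the 9 genes that passed the filter only through the tumours.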
